A study of Saccharomyces cerevisiae with 6 samples.

Results

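The genes described here are the nuclear genes of budding yeast, Saccharomyces cerevisiae, that carry the names of mitochondrial ribosomal proteins. They were chosen by name alone, as table entries with a single gene name made of MRPL, MRPS, MRP or RSM and a number. No expression value entered the rule. The rule was set with earlier results of these data known, and it gave 64 of the 6932 entries. Of these, 27 were counted with the small subunit, 36 encode proteins of the large subunit, and MRP8 stands apart. The 27 include RSM22, which encodes a protein of small-subunit assembly and is counted below with the ribosomal protein genes. MRP8 was once taken for a mitochondrial ribosomal protein from its sequence, and it is not counted among the ribosomal proteins. The genes lie on 14 chromosomes.

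Mitochondria make a small set of proteins on their own ribosomes, mainly core subunits of the respiratory chain and of the ATP synthase. In yeast the ribosomal RNAs and the small-subunit protein Var1 are encoded in mitochondrial DNA, while nearly all other proteins of these ribosomes are made in the cytosol and imported. The messages for the imported proteins are known targets of Puf3, an RNA-binding protein of the Pumilio family that binds the 3' end of mRNAs for mitochondrial proteins. Respiration is needed for sporulation, since the cells use acetate as their carbon source.

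RNA was sequenced from meiotic cultures of 3 genotypes, labelled WT, bas1 and ino4, with 2 samples per genotype, all taken at 4 h in meiosis. All cultures spent 13.5 to 14 h at 30 °C in yeast extract, peptone and 1% potassium acetate before they were moved to 2% potassium acetate to sporulate. Bas1, of the Myb family, turns on genes of purine and histidine synthesis. Ino4, of the basic helix-loop-helix family, turns on phospholipid genes together with Ino2. The labels name the mutants by gene only, so the kind of mutation, the strain and whether a line is a single clone are not stated in them.

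The authors' table gives FPKM, sequenced fragments scaled to the length of the gene model and to the library's mapped total, with 1 combined value for each gene and genotype. How far the 2 samples of a genotype lie apart and how many reads stand behind a value are therefore unknown, and no difference below has a replicate check or a test. Differences are given on the log2(FPKM + 1) scale, where low genes differ by less than their ratio. A fold is the FPKM of 1 genotype over that of another. A gene is called 2-fold apart when the log2 difference is at least 1 in size. The comparison took entries with an FPKM of 1 or more in some genotype and above 0 in all 3, which are 6153 entries and include all 64 genes. In bulk RNA, fewer cells of a kind and less RNA per cell cannot be told apart.

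The labels were checked against the mutated genes and against meiotic genes. The FPKM of BAS1 was 19.4 in WT, 21.1 in ino4 and 0.00985 in bas1. That of INO4 was 307 in WT, 271 in bas1 and 0.339 in ino4. All 9 meiotic markers were present, at 83.9 to 7919 in WT, 104 to 7959 in bas1 and 102 to 6261 in ino4. Of these, NDT80, the activator of middle meiotic genes, was at 282 in WT, 525 in bas1 and 277 in ino4. All 9 markers were above WT in bas1, with a median log2 difference of 0.22, and 5 of 9 were above WT in ino4, with a median of 0.07. Their summed FPKM was 17239 in WT, with 18972 in bas1 and 16267 in ino4. The part of these differences in the results for bas1 was not tested.

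The sequence feature that these genes share was looked for in the yeast reference genome, RefSeq assembly R64. The Puf3 site was searched as TGTANATA, on the coding strand only, in the 300 bases after the stop codon. It was present in 62 of the 64 genes, against 16.2% of 5997 genes with such a window. Of the small-subunit genes 26 of 27 held it, and of the large-subunit genes 36 of 36 did. The genes without a match were RSM22 and MRP8. The windows below show the 4 lowest genes in bas1 against WT (MRPL33, MRP10, MRP17 and MRPL44), the highest there (MRPL4), and the lowest and highest in ino4 against WT (MRPS35 and MRPL28). RSM19 is added for its number of sites, and for genes with more than 1 site only 1 is shown. Capitals mark the site, and each sequence is a 30-base window read 5' to 3' on the gene's strand.
MRPL33, chrXIII:842249-842278, plus strand: tgacttatataTGTATATAgtattattttt
MRP10, chrIV:372580-372609, plus strand: agtcatggcctTGTATATAcaaattaaata
MRP17, chrXI:437038-437067, minus strand: ctacaaacacaTGTAAATAcatacatatct
MRPL44, chrXIII:720854-720883, minus strand: acaagcaagccTGTAAATAatatatatgca
MRPS35, chrVII:830212-830241, plus strand: ccattattactTGTACATAaaatattctac
MRPL4, chrXII:1015467-1015496, plus strand: accctctctccTGTAAATAtatatatatat
MRPL28, chrIV:1386537-1386566, plus strand: ctgtctcctgcTGTAAATAactgatgatca
RSM19, chrXIV:694996-695025, minus strand: atgatatatcaTGTAAATAagatcaagcca

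Since 62 of the 64 genes held the site, it was found in genes that were lower in a mutant and in genes that were higher. The windows therefore cannot show whether the site goes with the direction. In all there were 76 sites in the 62 genes, and 13 genes held more than 1. RSM19, which encodes uS19m of the small subunit, held 3. The sites began 8 to 238 bases after the stop codon, with a median of 54. The first site of 25 genes began 26 to 50 bases after the stop codon, which is 39.1% of the members against 3.22% of other genes. A match is a description of the letters in the window and does not show binding. PUF3 itself was at 42.5 in WT, 40.8 in bas1 and 41.3 in ino4.

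**Figure D1:**
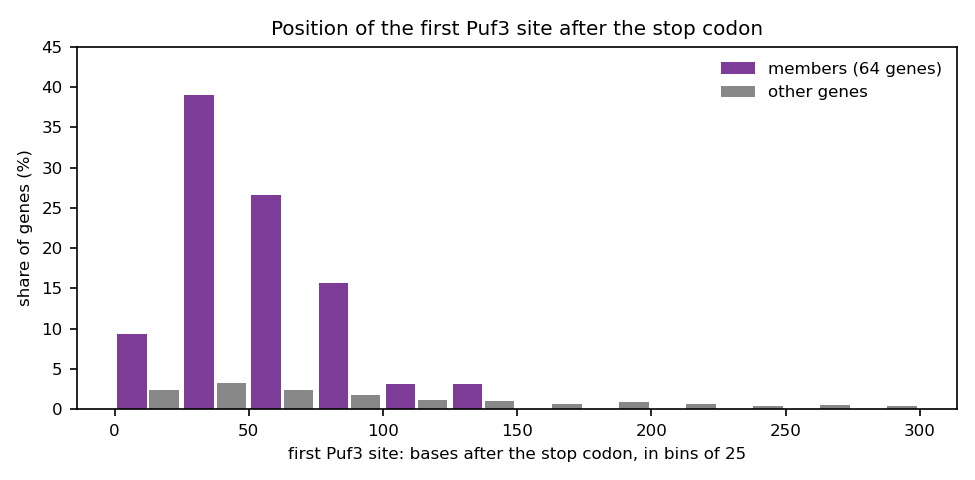
Share of genes (y axis, %) whose first Puf3 site begins in each 25-base bin after the stop codon (x axis, bases), for the 64 members (purple) and all other genes with a window (grey). In the bin from 26 to 50 bases lie 39.1% of the members and 3.22% of the other genes.

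Upstream of the genes, the DNA letters known from the promoters that Bas1 and Ino4 act on were rare. The core TGACTC, shared by Bas1 and Gcn4 sites, was searched on both strands in the 250 bases before the start codon. It was present in 1 of the 64 genes, against 6.25% of 6001 genes with such a window. That gene was MRPS17, which encodes uS17m of the small subunit, and it held 3 cores, which begin 250, 244 and 210 bases before the start codon. The core CATGTG of the Ino2-Ino4 site was present in 1 of 64, against 5.57% of the same genes. That gene was MRP49, which encodes mL61 of the large subunit. The segments are shown from R64 on the gene's strand, with the cores of either strand in capitals.
MRPS17, chrXIII:637200-637254, minus strand: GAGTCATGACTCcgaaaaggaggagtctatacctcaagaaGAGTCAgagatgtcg
MRP49, chrXI:134361-134384, minus strand: aaaaagtgaCACATGcatatatgt

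MRPS17 lies 495 bp from GCV2, a glycine cleavage gene that is read in the other direction, so this segment is upstream of both. The FPKM of MRPS17 was 77.6 in WT against 65.0 in bas1 and 60.7 in ino4. GCV2, named after its values were seen, was at 150 in WT, 146 in bas1 and 158 in ino4. MRP49 was at 56.5 in WT, 42.8 in bas1 and 52.3 in ino4. None of these values was 2-fold apart between genotypes. Among the 64 genes, 38 had a neighbour read in the other direction upstream. The share among all genes was not counted, so this number does not set the members apart.

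In WT, the 63 ribosomal protein genes without MRP8 spanned FPKM 9.64 to 269, a 27.9-fold range, with a median of 54.8. The highest were MRPL37 at 269, MRPL23 at 256, MRPS16 at 255 and RSM18 at 253. These encode mL54 and uL13m of the large subunit and bS16m and bS18m of the small subunit. The next gene, MRP2, encoding uS14m, was at 135, so these 4 genes stood apart at the top. The lowest were RSM22 at 9.64, MRPS8 at 9.91, RSM26 at 14.4, MRPL11 at 14.6 and MRP4 at 17.1. RSM22 encodes a methyltransferase-related protein of small-subunit assembly, RSM26 a protein related to manganese superoxide dismutase, and MRPL11 the stalk base protein uL10m. MRP8 lay far above all ribosomal protein genes, at 1808 in WT, with 1567 in bas1 and 1715 in ino4.

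The order of the genes by level was much alike in the 3 genotypes. Across the 63 genes, Spearman's rho of the levels was 0.95 for bas1 with WT, 0.96 for ino4 with WT and 0.95 for the mutants with each other. This is a description across genes, which share the libraries and gene models. The median was 39.1 in bas1 and 52.3 in ino4. In bas1 10 genes were under an FPKM of 20 and 6 were over 100, whereas WT and ino4 each had 5 under 20 and 10 over 100. The summed FPKM of the 63 genes was 4281 in WT, 3566 in bas1 and 4136 in ino4, so bas1 was at 83.3% of WT and ino4 at 96.6%.

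**Figure D2:**
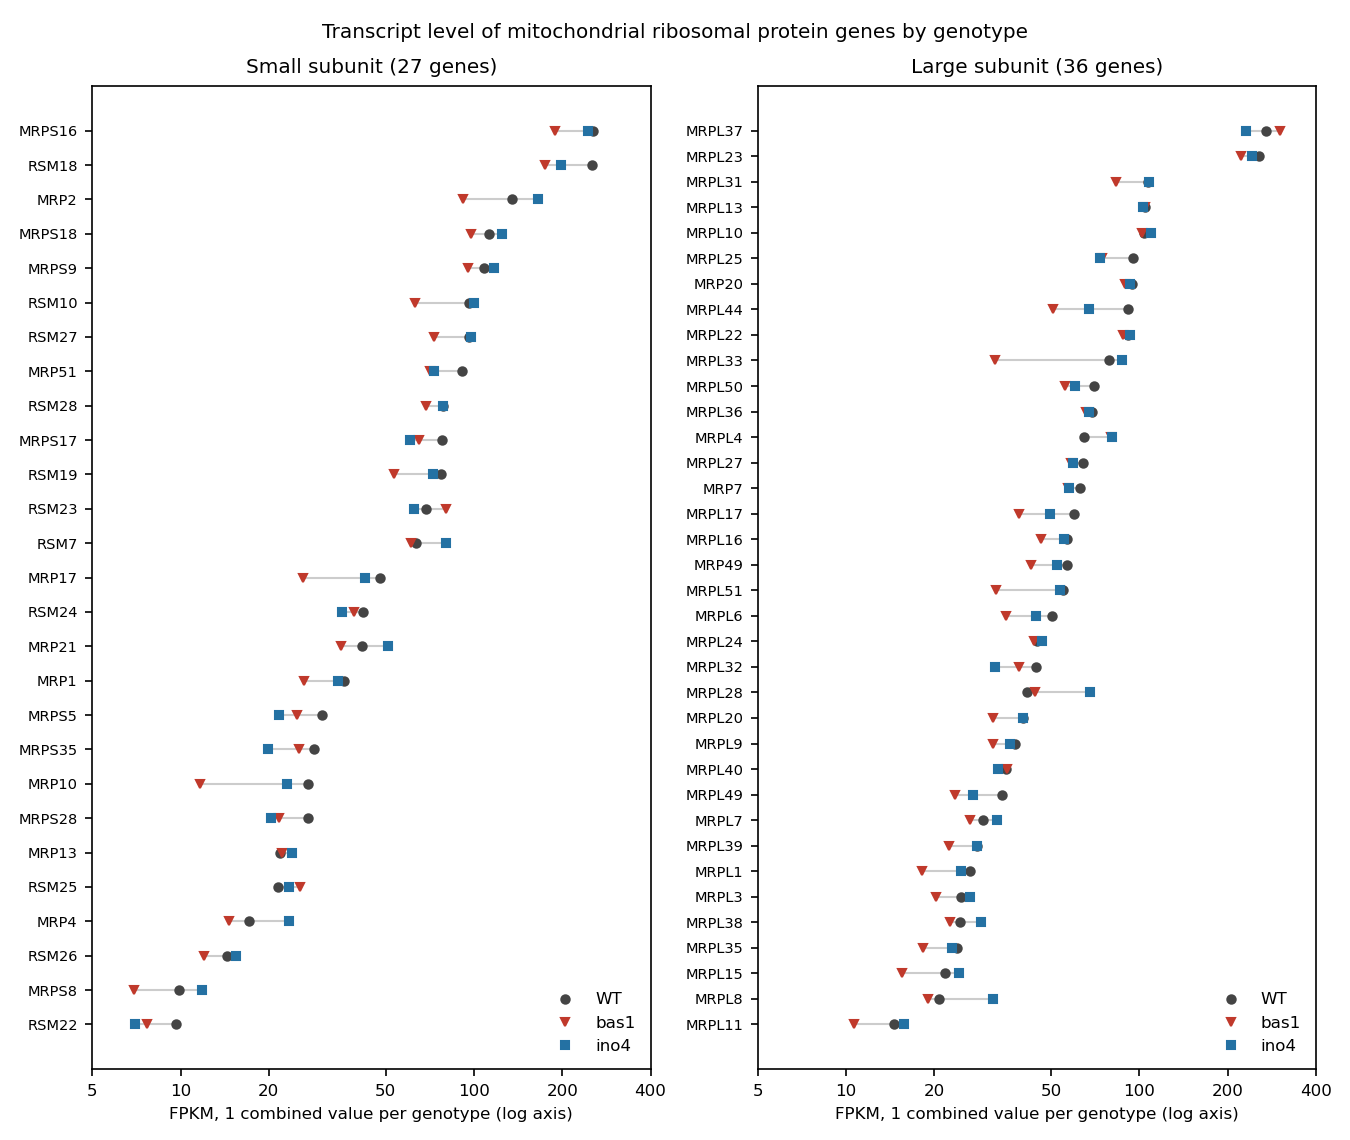
FPKM (x axis, log scale) of each small-subunit gene (left) and large-subunit gene (right), ordered by the WT level, in WT (circle), bas1 (triangle) and ino4 (square), 1 combined value per genotype. Most triangles lie to the left of the circles, farthest for MRPL33 and MRP10, and the squares lie on either side of them. MRP8 is not drawn.

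In both subunits bas1 had the lowest median, and WT and ino4 changed places. The median FPKM of the small-subunit genes was 47.8 in WT, with 39.1 in bas1 and 50.8 in ino4. The median of the large-subunit genes was 55.7 in WT, with 40.9 in bas1 and 52.9 in ino4. The summed FPKM of the small subunit divided by that of the large subunit was 0.789 in WT, 0.712 in bas1 and 0.792 in ino4. Such sums are weighted by the highest genes. From WT to bas1, RSM18 went from 253 to 174 and MRPS16 from 255 to 189 in the small subunit. In the large subunit MRPL37 went from 269 to 301 and MRPL23 from 256 to 222. The median log2 differences of the subunits were alike, at -0.27 and -0.26. Of 10 mitochondrial genes looked up, 7 have an entry of their own, and all 7 are listed at 0 in every genotype. VAR1, the small-subunit gene in mitochondrial DNA, is among them, so the mitochondrial side of these ribosomes has no value here.

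The first comparison asks which of the genes differ in the bas1 mutant, whose BAS1 transcript was near 0. In bas1, 57 of the 64 genes were below WT, against 49.4% of all entries compared. The median difference was -0.26, against 0.0051 over all entries, and the middle of the members ran from -0.43 to -0.12 at the quartiles. The 9 meiotic markers were all above WT, but by as little as 0.0072 for IME1 and as much as 0.89 for NDT80. They were not set against entries of like length. The members' shift was broad and small. Only 2 of the 64 genes were at least 2-fold lower, against 2.34% of all entries, and 0 were at least 2-fold higher, against 0.975%. At a 1.5-fold rule 7 genes, or 10.9%, were lower, against 7.33%, and 0 were higher, against 3.98%. The shares at 2-fold and 1.5-fold lie near those of all entries, and it is the share below WT that lies away from it.

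The subunits were alike in this respect. Of the small-subunit genes 24 of 27 were below WT, with a median of -0.27, and of the large-subunit genes 32 of 36 were, with a median of -0.26. The genes above WT by the most were MRPL4, at 64.6 in WT and 79.9 in bas1, and RSM25, at 21.5 in WT and 25.5 in bas1. MRPL4 encodes uL29m, which lies at the exit of the polypeptide tunnel. RSM23, which encodes the GTP-binding protein mS29, was at 68.6 in WT and 80.5 in bas1. MRPL37 was at 269 in WT and 301 in bas1, and MRPL28 at 41.3 and 44.1. None of the 5 reached 1.5-fold.

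MRPL33 stood lowest against WT. It encodes uL30m, a large-subunit protein, and lies at chrXIII:841941-842201 in the table's build, sacCer2, as a single exon of 261 bp. Its FPKM was 79.0 in WT, 32.3 in bas1 and 87.2 in ino4, so bas1 alone was low. It was 2.45-fold lower in bas1 than in WT, a log2 difference of -1.27. The neighbouring genes, named after their values were seen, were less than 2-fold apart. NGL2, which is read in the other direction from the same 250-bp gap, was at 64.9 in WT and 90.2 in bas1. DSS1, on the other side, encodes a component of the mitochondrial RNA degradosome and was at 9.80 in WT and 6.14 in bas1.

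MRP10 was the other gene past 2-fold. It encodes mS37, a small protein of the small subunit with paired cysteines that is imported through the Mia40 pathway. It lies at chrIV:372245-372532 in sacCer2, a single exon of 288 bp. Its FPKM was 27.3 in WT, 11.6 in bas1 and 23.0 in ino4, a 2.34-fold lower level in bas1 than in WT and a log2 difference of -1.16. The neighbours NPC2 and FAD1, also named after their values were seen, were at 2036 and 56.4 in WT and at 1909 and 37.8 in bas1. Both MRPL33 and MRP10 have table entries under 300 bp, among only 4 members that short.

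A further 5 genes were at least 1.5-fold lower in bas1. MRP17, encoding bS6m, was at 47.8 in WT, 26.2 in bas1 and 42.5 in ino4. MRPL44, encoding mL53 and the only member with an intron in its coding sequence, was at 91.6 in WT, 50.9 in bas1 and 67.2 in ino4. Its table entry spans 444 bp with the intron, while its coding sequence in R64 has 297 bases. MRP17 and MRPL44 were the nearest below the 2-fold rule, at log2 differences of -0.85 and -0.83. MRPL51, encoding mL43, was at 54.8 in WT, 32.4 in bas1 and 53.5 in ino4. MRPL17, encoding mL46, was at 60.1, 39.0 and 49.6 in the same order, and RSM10, encoding uS10m, at 96.6, 63.2 and 99.8. These genes were picked for a low value in bas1 against WT. Bas1 was below ino4 in each of them too, as in 51 of the 64 members. MRPL51 shares its table position with YPR099C, which was at 172 in WT and 128 in bas1, and reads of the pair may not be told apart since use of strand in counting is not given.

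Named places on the ribosome can be followed gene by gene. Around the exit of the polypeptide tunnel, MRP20, encoding uL23m, was at 94.7 in WT, with 89.1 in bas1 and 93.1 in ino4, and MRPL22, encoding uL22m, was at 91.6, 87.7 and 93.1 in the same order. These hardly differed between genotypes, unlike MRPL4 at the same exit, where both mutants had higher values than WT. Near the peptidyl transferase centre, MRP7, encoding bL27m, was at 62.8, 57.1 and 57.7, and MRPL16, encoding uL16m, at 56.9, 46.0 and 55.5. On the stalks of the large subunit, MRPL11 was at 14.6, 10.7 and 15.8, and MRPL1, encoding uL1m, at 26.5, 18.2 and 24.7. In both stalk genes bas1 was the lowest genotype. Among all 64 members, bas1 was below WT in 57 and below ino4 in 51.

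On the small subunit, MRP51, encoding bS1m, has been linked by genetics to the mRNAs of cytochrome oxidase subunits, and it was at 91.0 in WT, 70.6 in bas1 and 73.3 in ino4. MRPS18, encoding uS11m of the platform, was at 113, 97.5 and 125. MRP1, which with RSM26 is related to manganese superoxide dismutase, was at 36.2, 26.5 and 34.4, and RSM26 at 14.4, 12.1 and 15.5. In the large subunit, MRPL3 and MRPL15 are related to ribonuclease III, and were at 24.6, 20.3 and 26.5 and at 21.8, 15.6 and 24.3. In all 4 of these genes bas1 was the lowest genotype, as in most of the members.

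**Figure D3:**
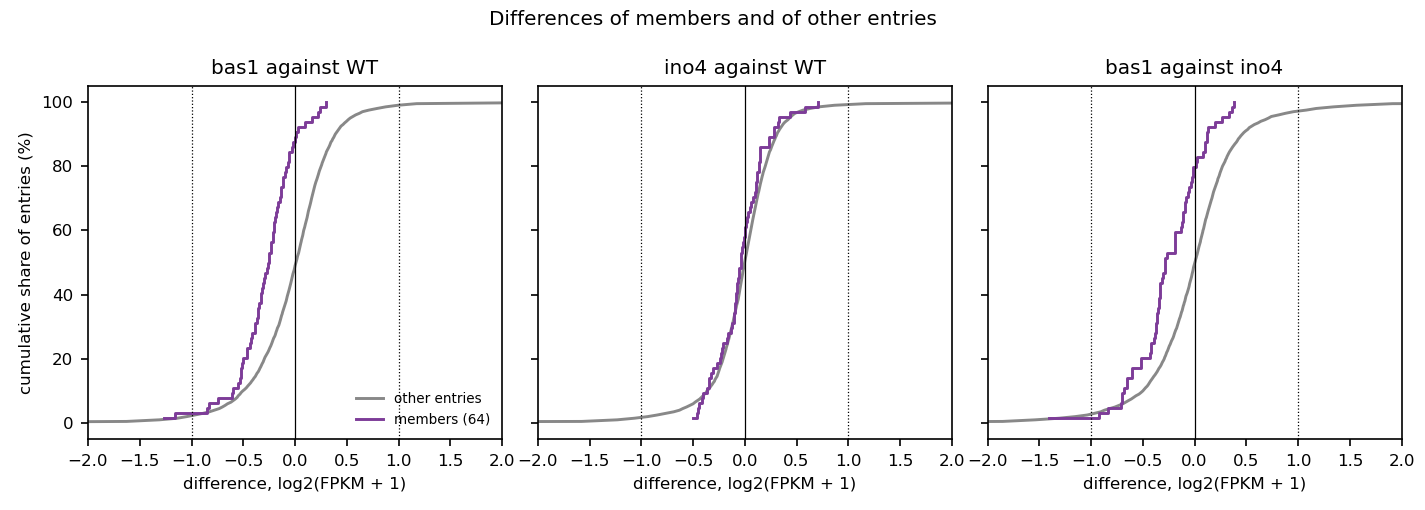
Cumulative share of entries (y axis, %) by difference on the log2(FPKM + 1) scale (x axis, drawn from -2 to 2) for the 64 members (purple) and all other entries compared (grey), in each comparison. Dotted lines mark the 2-fold rule. Against WT the members' curve lies to the left in bas1, with a median of -0.26, and near the grey curve in ino4, with a median of -0.04.

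The second comparison, ino4 against WT, uses the same WT values. In ino4, 38 of the 64 genes were below WT, against 50.6% of all entries, and the median difference was -0.04, against -0.0031. At the 2-fold rule 0 genes were lower, against 1.76% of all entries, and 0 were higher, against 0.683%. At the 1.5-fold rule 0 genes were lower, against 4.62%, and 2 were higher, against 2.32%. Those 2 were MRPL28 and MRPL8. By these counts the members were close to all entries in ino4.

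MRPL28 encodes mL40 of the large subunit, and its FPKM was 41.3 in WT, 44.1 in bas1 and 67.8 in ino4. It was the highest member against WT, at a log2 difference of 0.70. MRPL8 encodes bL17m and was at 20.8 in WT, 19.1 in bas1 and 31.7 in ino4, a difference of 0.59. For both genes ino4 stood alone above the other genotypes. MRP4, encoding uS2m, was at 17.1 in WT and 23.5 in ino4, RSM7, encoding uS7m, at 63.5 and 80.0, and MRPL4 at 64.6 and 80.9. MRP4 and RSM7 each share a table position with another entry, YHL005C and YJR114W.

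At the low end of ino4 stood MRPS35, encoding mS45, at 28.5 in WT, 25.3 in bas1 and 19.8 in ino4. Its log2 difference from WT was -0.50. MRPS5, encoding uS5m at the mRNA entry of the small subunit, was at 30.3 in WT and 21.7 in ino4. MRPL32, encoding bL32m, whose maturation by the mitochondrial m-AAA protease is a known step of ribosome assembly, was at 44.6 in WT and 32.3 in ino4. MRPL44 was at 91.6 and 67.2, and RSM22 at 9.64 and 7.001. None of the 5 reached 1.5-fold.

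Set directly against ino4, bas1 was lower for 51 of the 64 genes, against 50.0% of all entries, with a median difference of -0.28, against 0.0 over all entries. The gene at least 2-fold lower was MRPL33, at 32.3 in bas1 and 87.2 in ino4, a 2.70-fold lower level in bas1. That is 1 of the 64 genes, against 2.78% of all entries, and 0 were at least 2-fold higher, against 2.78%. At the 1.5-fold rule 11 genes, or 17.2%, were lower in bas1, against 8.22%, and 0 were higher, against 6.79%. The share lower at 1.5-fold was thus above that of all entries. MRP10, at -0.93, was the nearest gene short of 2-fold. MRP2 was at 92.1 in bas1 and 165 in ino4, a difference of -0.84. MRPL8 and MRPL51 followed, both at -0.71.

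At the other end of that comparison stood MRPL37, at 301 in bas1 and 231 in ino4, a difference of 0.38, and RSM23, at 80.5 and 62.5. MRPS35, MRPL32 and MRPS5 also had higher values in bas1 than in ino4, at differences of 0.34, 0.27 and 0.19. Of the small-subunit genes 19 of 27 were lower in bas1 than in ino4, and of the large-subunit genes 31 of 36 were.

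The lengths of the genes moved with the result in bas1. The members are short, from 213 to 1887 bp with a median of 715.5, and 57 of the 64 table entries have the coding length of R64, without UTRs. Among other entries that share no position, the median difference between bas1 and WT was -0.31 under 300 bp, -0.16 from 300 to 500 bp and -0.05 from 500 to 800 bp. It was 0.03 from 800 to 1200 bp and 0.05 at 1200 bp or more. The class medians were thus lower the shorter the entries. The members with a position of their own had medians of -0.84, -0.39, -0.21, -0.18 and -0.03 in the same classes, with 4, 16, 17, 20 and 2 genes.

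Within its length class, each member could be set against the median of the other entries. In bas1 against WT, 51 of 59 members lay below that median, and in bas1 against ino4 42 of 59 did. In ino4 against WT 34 of 59 did, and the other entries showed no such order by length, with class medians from -0.02 to 0.01. With the median of the class subtracted, an alternative chosen after seeing the data, the members' median in bas1 was -0.21. MRPL33 was then at -0.96 and MRP10 at -0.85, so neither was past 2-fold. What links length to the difference was not tested.

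**Figure D4:**
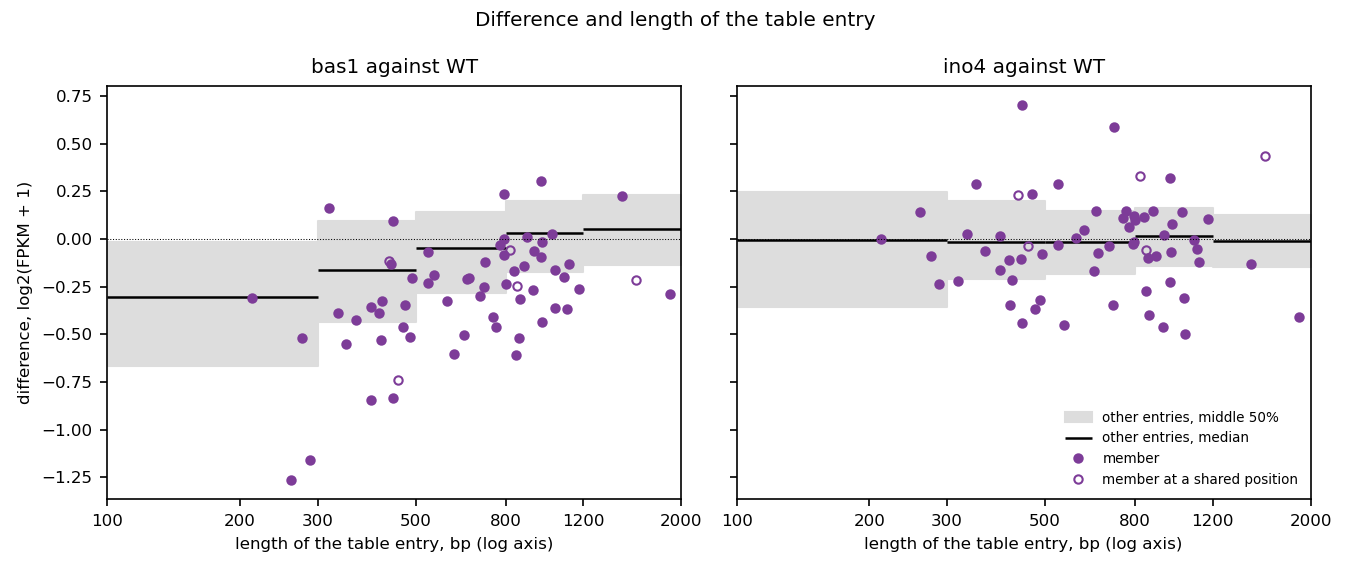
Difference on the log2(FPKM + 1) scale (y axis) and length of the table entry (x axis, bp, log scale) for the members (purple; open circles share a table position with another entry), for bas1 against WT and ino4 against WT. Black lines are the medians and grey bands the middle 50% of other entries in 5 length classes. In bas1 the line runs from -0.31 for the shortest to 0.05 for the longest entries, and 51 of the 59 filled members lie below it.

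The members' base composition was close to that of all entries. Their median GC content was 39.6%, against 39.8% over 5510 entries with a value. In bas1 against WT the members' median was -0.29 at a GC content of 36 to 38%, -0.24 at 38 to 40%, -0.32 at 40 to 42% and -0.09 above 42%. Other entries had medians of 0.02, 0.02, 0.01 and 0.03 in these classes. In ino4 against WT the members' medians ran from -0.13 to 0.14 over the same classes, and those of other entries from -0.07 to 0.11. The 127 genes next to the members had a median of -0.0032 in bas1 against WT, with 66 of them below WT.

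Other genes with and without a Puf3 site were also set side by side. Outside the members, entries with the site had a median of -0.03 in bas1 against WT over 787 entries, and entries without it had 0.02 over 4216. Under 300 bp, these medians were -0.43 over 28 entries and -0.27 over 141. From 300 to 500 bp they were -0.23 over 72 and -0.14 over 351. In the class from 500 to 800 bp they were -0.11 over 116 and -0.04 over 630. From 800 to 1200 bp they were -0.03 over 170 and 0.04 over 921. At 1200 bp or more they were 0.03 over 401 and 0.06 over 2173. The members' medians of -0.84, -0.39, -0.21, -0.18 and -0.03 in these classes lay below both, with 4 members in the shortest class and 2 in the longest. In ino4 against WT the medians were -0.02 with the site and -0.0043 without it.

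Other genes of the mitochondrial ribosome and of its work were set beside the members. For all lists below, the share of all entries below WT was 49.4% in bas1 and 50.6% in ino4. Of 14 mitoribosomal protein genes with other names, 12 were below WT in bas1 and 7 in ino4, with medians of -0.28 and -0.01. The largest differences in bas1 were those of RTC6, encoding bL36m, at 48.1 in WT, with 33.0 in bas1 and 31.0 in ino4, and of QRI5, encoding mS38, at 68.6, 47.3 and 76.2. In ino4, RTC6 and MHR1 were farthest from WT, and MHR1, which encodes mL67 and also acts in mitochondrial DNA recombination, was at 53.2 in WT and 37.4 in ino4. None of the 14 was 2-fold apart, and all 14 held a Puf3 site.

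A pair of ribosomal protein genes escaped the naming rule. The entry YNR036C is the gene now called MRPS12, encoding uS12m of the decoding centre, and was at 312 in WT, 287 in bas1 and 375 in ino4. In WT it was thus above all 63 ribosomal protein genes of the rule. MRPL19, encoding uL11m, is merged in the table with YNL184C, and this entry was at 48.4, 40.3 and 55.5. Both were lower in bas1 than in WT and higher in ino4.

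Genes for proteins that work with the ribosome were described list by list. Of 9 translation factor genes 7 were below WT in bas1 and 5 in ino4, with medians of -0.16 and -0.01. IFM1, the initiation factor, was at 9.91 in WT, with 6.47 in bas1 and 8.03 in ino4, and RRF1, the recycling factor, at 31.9, 23.3 and 33.2. FMT1, which formylates the initiator methionyl-tRNA, was at 36.1 in WT, 45.9 in bas1 and 47.3 in ino4. GUF1, an elongation factor of the LepA family, was at 12.1, 9.38 and 9.14. No member of this list was 2-fold apart.

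Of 16 genes for charging mitochondrial tRNAs, 12 were below WT in bas1 and 9 in ino4, with medians of -0.07 and -0.01. The farthest in bas1 were YGR102C, now called GTF1, a subunit of the glutamyl-tRNA amidotransferase, at 183 in WT and 127 in bas1, and MSK1, the lysyl-tRNA synthetase, at 16.5 and 11.6. In ino4 they were MST1, the threonyl-tRNA synthetase, at 10.8 in WT and 13.4 in ino4, and MSE1, the glutamyl-tRNA synthetase, at 12.9 and 15.1. A Puf3 site was found in 15 of the 16 genes, and their median length was 1618.5 bp, against 715.5 bp for the members.

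Of 9 genes for ribosome assembly and rRNA modification, 8 were below WT in bas1 and all 9 in ino4, with medians of -0.21 and -0.23. DMR1, also called CCM1, which is needed for stability of the small-subunit rRNA, was at 21.8 in WT, 15.7 in bas1 and 19.3 in ino4. MRM2, a methyltransferase of the large-subunit rRNA, was at 127, 101 and 115. RMD9 was at 13.6, 11.9 and 10.3, and the DEAD-box protein gene MRH4 at 7.999, 6.34 and 6.36. All of these differences were under 1.5-fold.

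Of 17 genes for translational activators of single mitochondrial mRNAs, 14 were below WT in bas1 and 10 in ino4, with medians of -0.11 and -0.05. CBP6, which acts on the cytochrome b mRNA, was at 15.7 in WT, 10.8 in bas1 and 13.1 in ino4. YGR021W, now called DPC29, was at 12.1, 8.44 and 14.2. In ino4 the farthest were AEP3, at 13.8 in WT and 9.66 in ino4, and PET122, at 21.3 and 26.8. AEP3 acts on the mRNA for ATP synthase subunits, and PET122 on that for cytochrome oxidase subunit III.

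The genes that copy and keep mitochondrial DNA and RNA were evenly placed. Of 8 genes for mitochondrial transcription, the nucleoid and RNA turnover, 4 were below WT in bas1 and 4 in ino4, with medians of -0.04 and -0.05. DSS1 and MGM101 were the farthest in bas1, and MGM101, a nucleoid protein for DNA repair, was at 68.7 in WT and 80.6 in bas1. In ino4 they were ABF2, the DNA-packaging protein, at 952 in WT and 800 in ino4, and SUV3, the degradosome helicase, at 11.4 and 9.59. Among regulators, HAP4, the activator subunit of the complex that turns on respiratory genes, was at 525 in WT, 702 in bas1 and 436 in ino4. HAP5, another subunit of it, was at 23.4, 18.8 and 17.7.

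The respiratory chain, whose core subunits these ribosomes make, also had medians below 0. Of 34 nuclear genes for respiratory chain and ATP synthase subunits 28 were below WT in bas1 and 25 in ino4, with medians of -0.31 and -0.14. All entries compared had 49.4% and 50.6% below WT. This list is short, with a median length of 454.5 bp, and other entries of 300 to 500 bp had a median of -0.16 in bas1. ATP18, encoding a small ATP synthase subunit, was the only one 2-fold apart from WT, at 363 in WT, with 180 in bas1 and 390 in ino4, and it is 180 bp long. The 134 cytoplasmic ribosomal protein genes had medians of 0.11 in both mutants, with 52 below WT in bas1 and 48 in ino4. A Puf3 site was found in 11 of the 134.

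**Figure D5:**
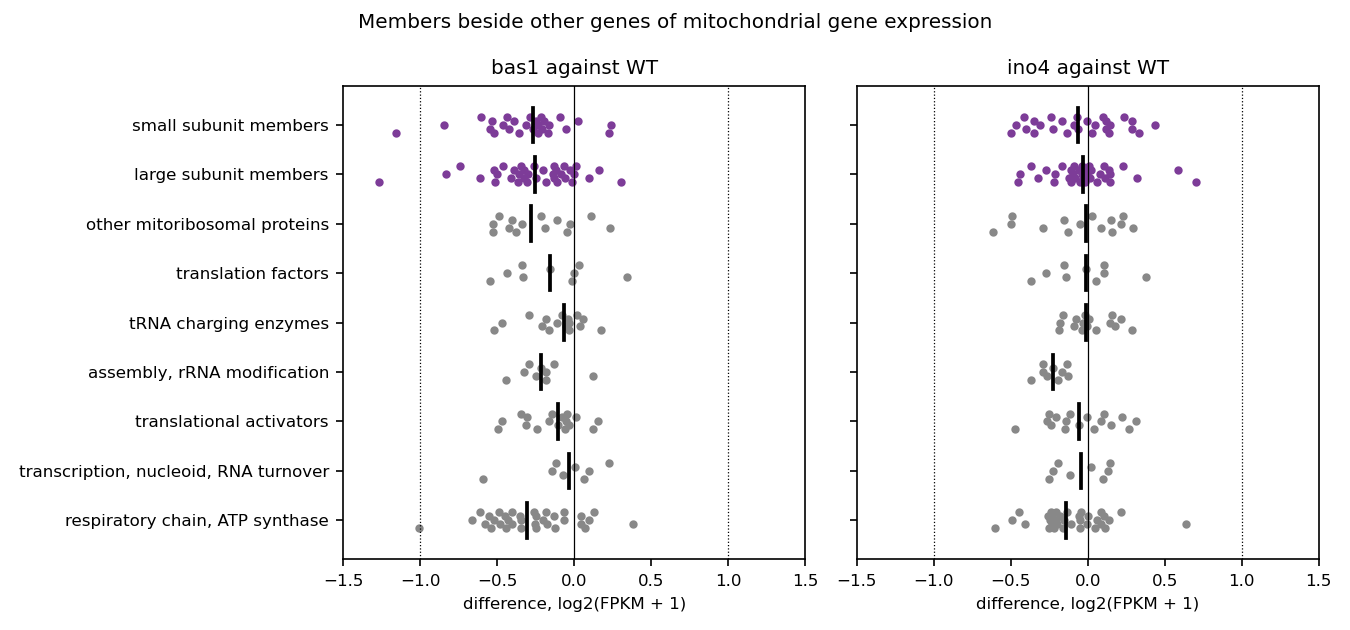
Difference on the log2(FPKM + 1) scale (x axis) of each gene (point) in the 2 subunits (purple) and in other lists of mitochondrial gene expression and respiration (grey), for bas1 against WT and ino4 against WT. Black bars are list medians and dotted lines the 2-fold rule. In bas1 the medians run from -0.31 for the respiratory chain to -0.04 for transcription and RNA turnover. These 2 lists also differ in median length, at 454.5 bp and 2308.5 bp.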

How the data were processed

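Hot phenol extraction and a TruSeq library kit were used, per the labels' protocols. STAR, Cufflinks and the build sacCer2 are named, per the submitters' processing notes. Versions, settings, strand use and the way samples were combined are details not given in the sources used here. All deposited values are FPKM made by the authors, with 1 column per genotype per the file headers, so depth per sample is unknown and the planned limma test gave way to a description.

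Differences were taken between log2 values after adding a pseudocount of 1 to FPKM, without rescaling (Python 3.11.15, pandas 2.3.3, numpy 2.4.6, scipy 1.17.1). The 2-fold rule was tested on simulated data with planted differences larger than 2-fold. Smaller shifts, the length and base composition classes and the search for Puf3 sites were not tested on such data. Table positions are sacCer2, counted from 1. Sequences are RefSeq R64 and were matched by name for 64 of 64 genes; the builds' coordinates were not mixed. Subunits and lists were set by hand, and the members and lists were chosen with earlier results of these data known.

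Named genes were BAS1, INO4, MRP8, the members 2-fold apart, and the 5 highest and 5 lowest by each difference and by WT level. Among members at a shared position, MRP4, RSM7 and MRPL51 were described, but MRPL9 and MRPL38 were not. From the lists came the genes 2-fold apart or otherwise those with the 2 largest differences. Landmarks of the ribosome were named too. Outside this, MRPL17 and RSM10 were given under the 1.5-fold rule, PUF3 beside its site, and MRP1, MRPL3 and MRPL15 for their protein families. Whether these were picked before their values were seen is not stated. Most other genes outside the rule are said to be named after their values were seen, or are given for the sequence they hold. Alternatives were 2 pseudocounts, 2 filters, 3 scalings, entries and members left out or added, and a 1.5-fold rule.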

Additional observations from a re-analysis of the deposited data

How the results depend on the processing

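The members' median difference kept its direction under all alternatives run. It lay between -0.27 and -0.21 in bas1 against WT, between -0.05 and -0.02 in ino4 against WT and between -0.29 and -0.18 in bas1 against ino4. The value of -0.18 came from subtracting the median of other entries of the same length, chosen after seeing the data. The count of members 2-fold apart in bas1 against WT was 2. It was 1 with a pseudocount of 5, where MRP10 was at -0.96, 0 without entries under 300 bp, which leaves out MRPL33 and MRP10, and 0 with the length median subtracted. With a 1.5-fold rule it was 7, and it was 2 in ino4 against WT and 11 in bas1 against ino4. In bas1 against ino4 it was 0 without entries under 300 bp. With the other mitoribosomal proteins added, the median FPKM of the small subunit was 43.2 in bas1 and 54.8 in ino4. Of 525 values of 18 named members under these settings, 504 counted as unchanged, 18 moved by 0.1 or more and 3 lost the 2-fold call. A value already 2-fold apart counted as unchanged while it stayed past 2-fold, however far it moved. MRPL33 in bas1 against ino4, for example, went from -1.41 to -1.13 with the length median subtracted. A change of direction was counted only for values 2-fold apart at first, and 0 of these reversed. No paired analysis was possible because the table holds 1 combined value per genotype. For the same reason leaving out each replicate and the replicate block were not run, and depth cannot be used to weigh low values.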
